A study of Mus musculus with 12 samples.

Results

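Gal, the gene for the precursor of the neuropeptide galanin, is 1 of 55322 genes in the deposited expression table and is described here across type 2 conventional dendritic cells (cDC2) of lymphoid and of myeloid origin. It was chosen by its FPKM (assigned fragments scaled to gene length and to library size), which was higher in the lymphoid-origin group of both experimental systems. Its levels between origins are therefore a description without a test, and tests are given only for the comparisons that the choice did not use.

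RNA-seq covered 12 libraries of cDC2 from mouse spleen in 4 groups of 3, all taken 4 days after lipopolysaccharide (LPS, a bacterial cell wall component) was given intraperitoneally at 5 mg/kg. From Il7r-Cre;Rosa26-lsl-tdTomato mice came L-cDC2, which carried tdTomato, and M-cDC2, which did not. In these mice Cre made from the interleukin-7 receptor gene leaves a lasting mark in a cell and its progeny. CLP-cDC2 and CDP-cDC2 were CD45.2+ cells grown from wild-type common lymphoid progenitors (CLPs) or common dendritic cell progenitors (CDPs) that had been injected into bone marrow, with CD45.1+ B6.SJL mice as recipients. The study set out to compare CLP-derived cDC2 with L-cDC2. The labels give the genotype of all 12 samples as wild type, the strain as C57BL/6J and the age as 7 to 8 weeks, and the series design gives the reporter alleles. All groups had received LPS, so no untreated level of Gal is given here. The tdTomato mark records that Il7r was once active in a cell or its ancestors, in whatever cell type that was. The labels do not say whether the replicates came from separate mice, or whether any mouse gave both an L-cDC2 and an M-cDC2 library, and p-values then reflect only how far these libraries differ among themselves, which could be technical spread.

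Galanin is a short peptide cut from a longer precursor that also holds galanin message-associated peptide. It is made in many neurons and in some endocrine cells, is stored in dense-core granules, and acts through the G protein-coupled receptors Galr1, Galr2 and Galr3. The peptide takes part in feeding, pain and nerve repair, and its receptors have also been described on immune cells. In what follows only RNA was measured, so nothing is known of the peptide itself.

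In the deposited table Gal (ENSMUSG00000024907) lay on chromosome 19 from 3459915 to 3464544 on the minus strand, a span of 4630 bases. The table merged 2 transcripts whose exons, 6 after merging, add up to 788 bases, the length used for FPKM. The 2 transcripts start 97 bases apart, and no other gene in the table overlaps the span. The submitters' notes list the builds GRCh38 and GRCm38, but these coordinates are not those of RefSeq on GRCm38.p6, used for the sequence below. Which build the deposited coordinates are on was not settled. The bases before a single annotated start of Gal are shown, and FPKM do not show at which start the measured RNA begins. Bases just before the other start may lie outside this window. The bases shown come from RefSeq on GRCm38.p6 (chr19:3414545-3414794, minus strand, written 5′ to 3′), and capitals mark the motif matches.
Gal promoter: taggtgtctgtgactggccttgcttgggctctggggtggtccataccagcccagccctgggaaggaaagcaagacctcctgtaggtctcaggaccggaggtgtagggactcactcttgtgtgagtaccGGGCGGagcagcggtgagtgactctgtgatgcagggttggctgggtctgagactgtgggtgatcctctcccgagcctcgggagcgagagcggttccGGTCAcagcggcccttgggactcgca
This window of 250 bases had a GC content of 62.4%, against a median of 52.4% over 32851 RefSeq windows of the same length, and held 11 CpG dinucleotides against a median of 6. Of 8 motifs searched on both strands, 2 were found. An Sp1 motif (GGGCGG) began 122 bases before the start, and 32.7% of all windows hold one. One arm of the oestrogen response element (GGTCA) began 26 bases before the start, and 35.2% of all windows hold one. There was no match for the cAMP response element (TGACGTCA, in 1.55% of windows), the core of that element (TGACG, 17.8%), the AP-1 motif (TGANTCA, 6.75%), the STAT motif (TTCNNNGAA, 7.02%), the E-box (CANNTG, 66.2%) or the TATA motif (TATAAA, 12.4%). The full cAMP response element contains this core, and no match says only that these letters are not in this window.

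Depth recovered from the steps of the FPKM values ran from 26543345 to 73732246 assigned reads per library, both in L-cDC2 (replicates 2 and 3). In the 1st principal component of the 14538 genes that passed the filter on low values (25.9% of the variance), the 3 L-cDC2 libraries stood at 31.3 to 40.5 and the other 9 between -28.3 and 8.25. In the 2nd component (22.0%), CDP-cDC2 replicate 3 stood at 50.6, while the other 11 libraries lay between -32.0 and 22.1. In the 3rd component (16.0%), M-cDC2 replicate 3 stood at 40.5 and the others between -24.9 and 16.5. All 12 markers listed for cDC2 passed the filter, but their level differed between groups. The class II gene H2-Ab1 ran from 6712 to 11336 FPKM and the growth factor receptor Flt3 from 86.2 to 121 FPKM. Zbtb46, the transcription factor of conventional dendritic cells, was lowest in CLP-cDC2 (8.03 to 9.55 FPKM, against 14.0 to 24.9 in the other groups), as was the cDC2 receptor Sirpa (38.1 to 43.3 FPKM, against 57.9 to 163). The summed cDC2 list was 7926 to 8473 FPKM in L-cDC2 and 9770 to 11487 FPKM in M-cDC2, and 6962 to 8625 against 11014 to 11887 FPKM in CLP-cDC2 and CDP-cDC2. H2-Ab1 alone made up most of each sum. On the log2(FPKM + 1) scale the median difference of the 12 markers was 0.30 in L-cDC2 minus M-cDC2 (0.04 for all tested genes), opposite to the sum. In CLP-cDC2 minus CDP-cDC2 it was -0.93 (-0.01 for all tested genes). By limma, 9 of the 12 fell in CLP-cDC2 relative to CDP-cDC2 (6.12% of all tested genes did) and 7 relative to L-cDC2 (6.32%), and in L-cDC2 relative to M-cDC2 1 rose and 1 fell (1.29% and 0.44%). The part of these differences in the level of Gal was not tested.

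Gal was present at a middling level in both lymphoid-origin groups and at a low level in both myeloid-origin groups. L-cDC2 replicates 1, 2 and 3 had 6.65, 5.40 and 6.30 FPKM, from 188, 113 and 366 reads. M-cDC2 replicates 1, 2 and 3 had 0.676, 0.258 and 1.72 FPKM, from 24, 10 and 69 reads. The reporter groups did not overlap, with the lowest L-cDC2 library at 3.13 times the highest M-cDC2 library. CLP-cDC2 replicates 1, 2 and 3 had 4.41, 10.1 and 6.07 FPKM, from 118, 363 and 203 reads. CDP-cDC2 replicates 1, 2 and 3 had 0.0347, 0.9503 and 0.871 FPKM, from 1, 42 and 28 reads. The transfer groups did not overlap either, with the lowest CLP-cDC2 library at 4.64 times the highest CDP-cDC2 library. The single read in CDP-cDC2 replicate 1 is under the 3 reads taken as the floor (0.104 FPKM in that library), and its exact 95% Poisson interval ran from 8.8e-04 to 0.193 FPKM. In the other 11 libraries Gal was above the floor, which came to 0.0516 to 0.143 FPKM across all 12. Without molecular identifiers in the libraries, floors and intervals cover counting error only. In RNA from many cells, fewer cells with Gal and less Gal per cell cannot be told apart.

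**Figure D1:**
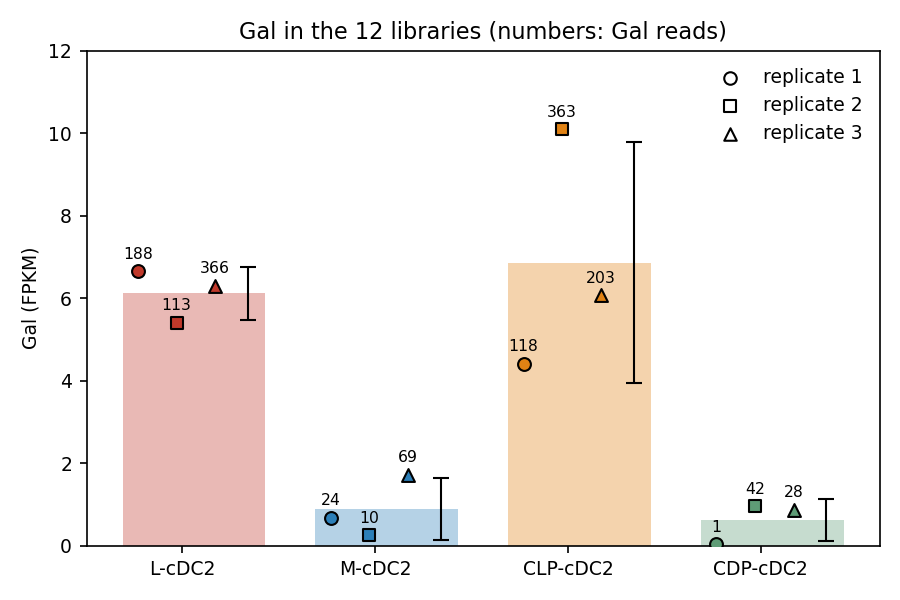
Gal level in FPKM on the vertical axis for the 4 cDC2 groups. Points are libraries (circle, square and triangle for replicates 1, 2 and 3, each with its number of Gal reads), bars are group means and error bars are SD (n = 3). The 6 lymphoid-origin libraries sit between 4.41 and 10.1 FPKM and the 6 myeloid-origin libraries between 0.0347 and 1.72 FPKM.

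The mean level was 6.12 ± 0.643 FPKM (SD, n = 3) in L-cDC2 and 0.886 ± 0.755 FPKM (SD, n = 3) in M-cDC2. Their ratio was 6.91, with 5.10 to 13.1 when 1 library of either group was left out. It was lowest without M-cDC2 replicate 2 and highest without M-cDC2 replicate 3, which had the most Gal of its group. On the log2(FPKM + 1) scale, which understates the change of genes with low values, L-cDC2 was higher by 1.99 ± 0.33 (SE, 95% interval 1.28 to 2.698). CLP-cDC2 had a mean of 6.86 ± 2.93 FPKM (SD, n = 3) and CDP-cDC2 of 0.619 ± 0.507 FPKM (SD, n = 3). That ratio was 11.1, with 7.53 to 15.1 when 1 library of either group was left out (13.9 without CDP-cDC2 replicate 3), and the log2 difference was 2.27 ± 0.33 (SE, 95% interval 1.56 to 2.98). The lineage difference in the reporter mice minus that in the transfer was -0.28 ± 0.46 on this scale (SE, 95% interval -1.29 to 0.72). No test is given for these 3 values because the choice of Gal used both contrasts. For the same reason their 95% intervals need not have that coverage and are not to be read as tests.

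Relative to other genes, Gal in the lymphoid-origin libraries sat in the middle of the range. It was above 47.5 to 54.8% of the tested genes in L-cDC2 and above 45.2 to 65.5% in CLP-cDC2. In M-cDC2 it was above 1.79 to 24.5% of them, with replicate 3 at the upper end, and in CDP-cDC2 above 1.09 to 8.14%. The SD was 10.5% of the mean in L-cDC2 and 42.7% in CLP-cDC2, where replicate 2 stood above the others, and 85.3% and 82.0% in M-cDC2 and CDP-cDC2.

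The comparisons between systems were not used to choose the gene. Gal was not called as different between the lymphoid-origin cells of both systems, with CLP-cDC2 minus L-cDC2 at 0.08 ± 0.33 on the log2 scale (SE, 95% interval -0.63 to 0.79, limma, Benjamini-Hochberg adjusted p = 0.91). The 3 libraries of each group overlapped, and the exact two-sided permutation test gave p = 0.9, where the smallest p that 3 against 3 allows is 0.1. Between the myeloid-origin cells, CDP-cDC2 minus M-cDC2 was -0.20 ± 0.33 (SE, 95% interval -0.91 to 0.51, limma, adjusted p = 0.78), with overlapping libraries and an exact permutation p of 0.7. A difference of up to 0.79 in the former and 0.91 in the latter remains within these intervals, so equal levels are not shown. From high to low the means ran CLP-cDC2, L-cDC2, M-cDC2, CDP-cDC2. The first and second of these overlap, as do the last pair, and there is a gap without overlap between L-cDC2 and M-cDC2.

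The sign of each between-system difference turned when 1 library was left out. CLP-cDC2 minus L-cDC2 was -0.20 without CLP-cDC2 replicate 2, the library with the most Gal. CDP-cDC2 minus M-cDC2 was 0.10 without M-cDC2 replicate 3 and 0.09 without CDP-cDC2 replicate 1. Without replicate 3 of both M-cDC2 and CDP-cDC2, the libraries that stood apart, it was -0.03.

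**Figure D2:**
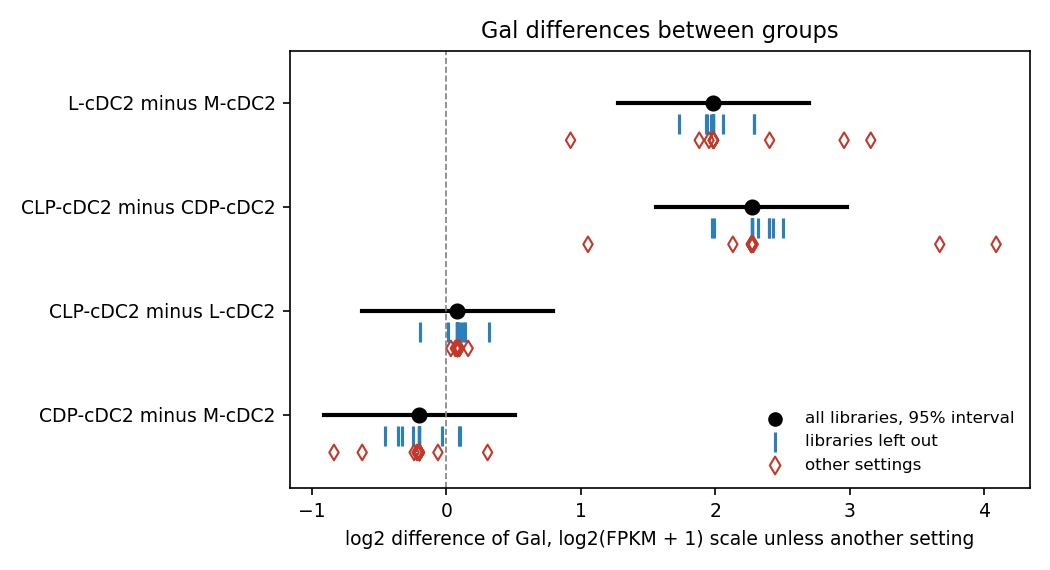
Differences of Gal on the log2(FPKM + 1) scale (horizontal axis) for the 4 contrasts between groups, with black points for the estimate and bars for the 95% interval from limma over 12 libraries, blue ticks for fits without 1 or 2 libraries and red diamonds for the other alternatives, some on another scale. The 2 differences between origins lie at 1.99 and 2.27, and their intervals are not tests because the choice of Gal used them. The 2 differences between systems lie at 0.08 and -0.20 with intervals that include 0.

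The closest relatives of Gal in the genome and its receptors were almost without reads in these cells. None of 7 genes of the galanin family passed the filter of 1 FPKM in 3 libraries. Galp, the galanin-like peptide, reached 0.0341 FPKM in the 1 library with any reads, and Spx, the related peptide spexin, reached 0.238 FPKM at most. Kiss1, the gene of the kisspeptin precursor, was at 0 in all 12 libraries, where 3 reads in the shallowest library would be 0.145 FPKM. Its receptor gene Kiss1r, a relative of the galanin receptors, reached at most 0.153 FPKM, in M-cDC2 replicate 3. Galr1 was above 0 in 3 libraries and reached 0.0315 FPKM. Galr2 was above 0 in 4 libraries, at 0.193 and 0.0994 FPKM in L-cDC2 replicates 1 and 3 and at 0.0083 and 0.0721 FPKM in M-cDC2 replicates 2 and 3. Galr3 was above 0 in 3 libraries, with a highest value of 0.151 FPKM in L-cDC2 replicate 2. Of these 7 genes, none thus reached the lowest lymphoid-origin level of Gal in any library.

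The wider galanin pathway was followed with 8 lists of 141 genes in all, of which 38 passed the filter and 8 were at 0 in every library. In L-cDC2 minus M-cDC2, limma called 0 of the 38 in either direction, where 1.73% of all tested genes were called (1.29% higher and 0.44% lower). At an unadjusted p under 0.05 there were 5 (2 higher and 3 lower), where 8.26% of all tested genes passed (5.61% higher and 2.66% lower), and voom on the recovered reads also called 0. In CLP-cDC2 minus CDP-cDC2, 2 were higher and 3 lower, where 13.1% of all tested genes were called (7.02% higher and 6.12% lower). At an unadjusted p under 0.05 there were 15 (6 higher and 9 lower), where 28.7% of all tested genes passed (15.5% higher and 13.2% lower). In CLP-cDC2 minus L-cDC2, 2 were higher and 1 lower, where 10.6% of all genes were called (4.29% higher and 6.32% lower). Here 11 passed an unadjusted p under 0.05 (4 higher and 7 lower), as did 27% of all tested genes (13% higher and 14% lower). In CDP-cDC2 minus M-cDC2, 0 were higher and 1 lower, where 2.58% of all genes were called (1.62% higher and 0.956% lower). There, 8 were higher at an unadjusted p under 0.05, as were 12.6% of all tested genes, and voom called 2 higher. The lineage difference itself, reporter against transfer, was called for 1 member in each direction (Plcb2 and Ramp1), where 5.99% of all genes were called (3.61% higher in the reporter mice and 2.38% lower).

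Of 15 genes for enzymes that cut and finish peptide hormones, 5 were tested: the proprotein convertases Furin and Pcsk7, the carboxypeptidase Cpe, the glutaminyl cyclase Qpct and the cathepsin Ctsl. Pcsk1 and Pcsk2, the convertases of neurons and endocrine cells, reached at most 0.0254 and 0.027 FPKM. Pam, which adds the amide at the end of peptides such as galanin, ran from 0.0513 to 0.184 FPKM. Furin ran from 1.05 to 2.49 FPKM and Pcsk7 from 2.83 to 9.14 FPKM, and neither was called in any contrast. None of the 12 genes of dense-core granules passed the filter, and their highest value was 0.172 FPKM for the granule protein Chga in L-cDC2 replicate 1.

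Cpe, which trims basic residues from cut precursors, differed between the systems within each origin. It was at 1.45, 2.27 and 1.32 FPKM in L-cDC2 replicates 1, 2 and 3 and at 1.16, 1.04 and 0.589 FPKM in M-cDC2. In CLP-cDC2 it was at 0.0226, 0.218 and 0.0090 FPKM and in CDP-cDC2 at 0.021, 0.157 and 0. All 6 reporter libraries were above all 6 transfer libraries. No transfer library reached 1 FPKM, so Cpe passed the filter only through the reporter libraries, and the filter favoured a fall in these tests. With that limit, Cpe fell by 1.29 ± 0.19 on the log2 scale in CLP-cDC2 relative to L-cDC2 (SE, limma, adjusted p = 8.8e-04, and 0.0056 without the filter). It fell by 0.86 ± 0.19 in CDP-cDC2 relative to M-cDC2 (SE, limma, adjusted p = 0.035). The latter call was lost, with adjusted p from 0.053 to 0.13, without L-cDC2 replicate 1, M-cDC2 replicate 1 or 2, or CDP-cDC2 replicate 1 or 3. With all libraries in a 2-group fit it was 0.1, with a pseudocount of 5 it was 0.067 and without the filter 0.12.

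Among enzymes that break peptides down, 7 of 10 genes were tested and 1 was called. The call was higher in CLP-cDC2 minus CDP-cDC2, as for 7.02% of all tested genes. Thop1, an oligopeptidase of the cytosol, was at 5.59, 4.58 and 4.18 FPKM in CLP-cDC2 and at 2.71, 2.06 and 3.26 FPKM in CDP-cDC2, without overlap. It rose by 0.66 ± 0.19 (SE, limma, adjusted p = 0.036), and the adjusted p was 0.052 to 0.11 without M-cDC2 replicate 2, or replicate 1 or 2 of CLP-cDC2 or of CDP-cDC2. With the replicate number as a block it was 0.059, in a 2-group fit 0.099 and without the filter 0.098. Mme, the membrane peptidase neprilysin, was above 0 in 2 libraries only and reached 0.0184 FPKM.

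Of 23 genes for G proteins and other parts of galanin receptor signalling, 10 were tested, among them the Gi and Gq alpha subunits Gnai2, Gnai3 and Gnaq. Plcb2, a phospholipase C of blood cells that acts downstream of G proteins, was at 11.4, 12.2 and 10.1 FPKM in CLP-cDC2 and at 15.8, 15.7 and 19.0 FPKM in CDP-cDC2. These groups did not overlap, and Plcb2 was lower in CLP-cDC2 by -0.54 ± 0.14 (SE, limma, adjusted p = 0.024). The adjusted p was 0.057 to 0.076 without replicate 1 or 3 of CLP-cDC2 or CDP-cDC2 replicate 3, 0.084 in a 2-group fit and 0.054 without the filter.

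Genes reported to drive Gal in injured nerves, the cytokine receptor chain Il6st and the transcription factors Atf3 and Fos among them, were not called in L-cDC2 minus M-cDC2. Here 8 of 14 were tested, with 2 past an unadjusted p under 0.05 in that contrast, where 8.26% of all tested genes passed. In CLP-cDC2, Il6st was at 3.54, 3.59 and 3.77 FPKM, below the 5.37, 7.65 and 9.02 FPKM of CDP-cDC2, a difference of -0.82 ± 0.17 (SE, limma, adjusted p = 0.0087, and 0.059 in a 2-group fit). Atf3 was at 40.0, 20.8 and 60.6 FPKM in CLP-cDC2 and at 60.7, 129 and 146 FPKM in CDP-cDC2, so that the highest CLP-cDC2 library nearly met the lowest CDP-cDC2 library. The difference was -1.47 ± 0.42 (SE, limma, adjusted p = 0.039). The adjusted p was 0.05 to 0.16 without M-cDC2 replicate 2, replicate 1 or 2 of CLP-cDC2, or replicate 2 or 3 of CDP-cDC2, 0.086 in a 2-group fit and 0.18 without the filter. Fos was at 732, 759 and 1037 FPKM in CLP-cDC2 and at 341, 389 and 541 FPKM in L-cDC2, without overlap. It rose by 1.0 ± 0.25 (SE, limma, adjusted p = 0.026), and the adjusted p was 0.051 to 0.1 without L-cDC2 replicate 1 or 2 or CLP-cDC2 replicate 2 or 3, and 0.12 without the filter.

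Of 39 other neuropeptide genes, 4 were tested and none was called by limma in any of the 4 contrasts. At an unadjusted p under 0.05 there were 0 in L-cDC2 minus M-cDC2 and in CDP-cDC2 minus M-cDC2, where 8.26% and 20.1% of all tested genes passed. There were 2 each in CLP-cDC2 minus CDP-cDC2 and CLP-cDC2 minus L-cDC2, where 28.7% and 27% of all tested genes passed. Nmb, the gene of neuromedin B, had means of 3.34 ± 0.678, 3.87 ± 0.468, 4.79 ± 1.93 and 2.92 ± 0.427 FPKM in L-cDC2, M-cDC2, and the CLP and CDP groups (SD, n = 3). Pomc, the precursor of melanocortins and endorphin, lay between 1.73 and 1.99 FPKM in the group means. Sst, Cck, Crh, Grp, Hcrt and Nms were at 0 in all 12 libraries, and 3 reads in the shallowest library would be 0.0765 to 0.157 FPKM for them.

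The list of receptors for other neuropeptides and transmitters included 4 tested genes of 21. Ramp1, the partner chain that makes the receptor for calcitonin gene-related peptide, was at 33.2, 24.9 and 36.1 FPKM in L-cDC2 and at 43.7, 41.6 and 48.8 FPKM in M-cDC2. In CLP-cDC2 it was at 73.8, 63.0 and 72.5 FPKM and in CDP-cDC2 at 49.2, 54.0 and 39.9 FPKM. CLP-cDC2 was the highest of the 4 groups and L-cDC2 the lowest, without overlap with any other. Ramp1 rose by 1.14 ± 0.15 in CLP-cDC2 relative to L-cDC2 (SE, limma, adjusted p = 5.5e-04). Relative to CDP-cDC2 it rose by 0.55 ± 0.15 (SE, limma, adjusted p = 0.036), with adjusted p from 0.051 to 0.11 without M-cDC2 replicate 2, any 1 CLP-cDC2 library, or CDP-cDC2 replicate 1 or 3. That call was also lost with quantile normalization (0.068), the replicate block (0.059), a 2-group fit (0.082), no filter (0.11), array weights (0.05) and no trend (0.051).

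Markers of other cells that a sort could hold were read beside Gal. Most markers of neurons and endocrine cells, the known makers of galanin, were at or near 0. Of 15 neuron markers 2 were tested, Prph (at most 2.25 FPKM) and Tubb3 (at most 1.59 FPKM), and neither was called (0 at an unadjusted p under 0.05 in each contrast). Nefl, a neurofilament chain, was at 0 in all 12 libraries, Snap25 of synapses reached at most 0.0341 FPKM and Th, which makes catecholamines, at most 0.0075 FPKM. The summed neuron list ran from 1.03 to 3.72 FPKM, and that of neuroendocrine cells, with no tested member, from 0.0845 to 0.505 FPKM.

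Lymphocyte markers moved with Gal in the reporter mice. In L-cDC2 minus M-cDC2, 7 of 10 tested B cell markers, 5 of 6 plasma cell markers, 5 of 7 T cell markers and 9 of 13 NK cell and ILC markers rose, where 1.29% of all tested genes did. The summed B cell list was 865 to 1025 FPKM in L-cDC2 and 457 to 476 FPKM in M-cDC2, and the summed plasma cell list 903 to 1480 against 67.5 to 85.9 FPKM. The summed NK cell and ILC list was 785 to 919 against 392.3 to 426 FPKM, and the summed T cell list 44.6 to 59.9 against 7.74 to 10.05 FPKM. Ncr1, the NK cell receptor, was at 6.91, 6.83 and 14.2 FPKM in L-cDC2 and at most 0.0144 FPKM in M-cDC2. Cd3e, a chain of the T cell receptor complex, reached at most 0.15 FPKM in any library.

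In the transfer, many of these markers were lower than in L-cDC2, but not all. In CLP-cDC2 replicates 1, 2 and 3, Ncr1 was at 0.191, 0.811 and 0.688 FPKM and the light chain gene Igkc at 20.1, 429 and 28.5 FPKM, against 805 to 1370 FPKM in L-cDC2. The T cell kinase Lck was at 11.1, 5.03 and 3.92 FPKM, with replicate 1 inside the L-cDC2 range of 9.90 to 11.96 FPKM, and the NK cell receptor chain Klrd1 was at 130, 150 and 189 FPKM, above the 76.1 to 98.4 FPKM of L-cDC2. Replicate 2 stood above the others for Igkc as it did for Gal. Its summed B cell list was 639 FPKM and its summed plasma cell list 497 FPKM, where replicates 1 and 3 had 69.4 and 87.4 FPKM for plasma cells and CDP-cDC2 had 89.0 to 102 FPKM. Replicates 1 and 3 had 4.41 and 6.07 FPKM of Gal, each above every CDP-cDC2 library. As for Gal, the summed B cell list was higher in all 3 CLP-cDC2 than in all 3 CDP-cDC2 libraries (456 to 639 against 400 to 432 FPKM). So was the summed T cell list (15.2 to 25.5 against 10.2 to 13.3 FPKM). The summed NK cell and ILC list was lower (210 to 297 against 340 to 499 FPKM), but a sum follows its most abundant members. The median log2 difference of its 13 tested members in CLP-cDC2 minus CDP-cDC2 was 0.27, against -0.01 for all tested genes. In CLP-cDC2 minus CDP-cDC2, 5 of 10 B cell markers, 2 of 7 T cell markers and 0 of 6 plasma cell markers (0 at an unadjusted p under 0.05) rose by limma, and of 13 NK cell and ILC markers 1 rose and 2 fell, where 7.02% of all tested genes rose and 6.12% fell. By the test of the lineage difference itself (limma, adjusted p), 3 of 10 B cell, 3 of 6 plasma cell, 4 of 7 T cell and 9 of 13 NK cell and ILC markers had a higher difference in the reporter mice, as did 3.61% of all tested genes. In CLP-cDC2 minus L-cDC2, where the Gal difference was 0.08, 6 of 10 B cell, 3 of 6 plasma cell, 5 of 7 T cell and 11 of 13 NK cell and ILC markers fell and 1 NK cell and ILC marker (Klrd1) rose, where 6.32% of all tested genes fell and 4.29% rose.

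Summed plasmacytoid dendritic cell markers were highest in CLP-cDC2 replicate 1, whose Gal was the lowest of its group. Ly6d, described below, is in both this list and that of early lymphoid cells, and was highest in the same library. The summed level of the plasmacytoid list was 355 FPKM in CLP-cDC2 replicate 1 and 162 to 235 FPKM in the other 11 libraries. Siglech, which defines these cells, was at 8.37 FPKM in that replicate and 3.38 and 3.65 FPKM in CLP-cDC2 replicates 2 and 3. Summed markers of type 1 conventional dendritic cells were 133 to 158 FPKM in L-cDC2 and 250 to 271 FPKM in M-cDC2, and 198 to 251 against 114 to 180 FPKM in CLP-cDC2 and CDP-cDC2. Summed monocyte and macrophage markers were 183 to 191 FPKM in L-cDC2 and 356 to 384 FPKM in M-cDC2, and 71.8 to 199.98 against 514 to 681 FPKM in CLP-cDC2 and CDP-cDC2. Of the 9 tested, 3 fell in L-cDC2 relative to M-cDC2 (0.44% of all tested genes did) and 5 in CLP-cDC2 relative to CDP-cDC2 (6.12%). Of the markers listed for early lymphoid cells, 5 of 6 tested rose in L-cDC2 relative to M-cDC2 (1.29% of all tested genes did). In CLP-cDC2 relative to CDP-cDC2, 3 of 6 rose (7.02%). The part of other cells in the level of Gal was not tested in any group.

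**Figure D3:**
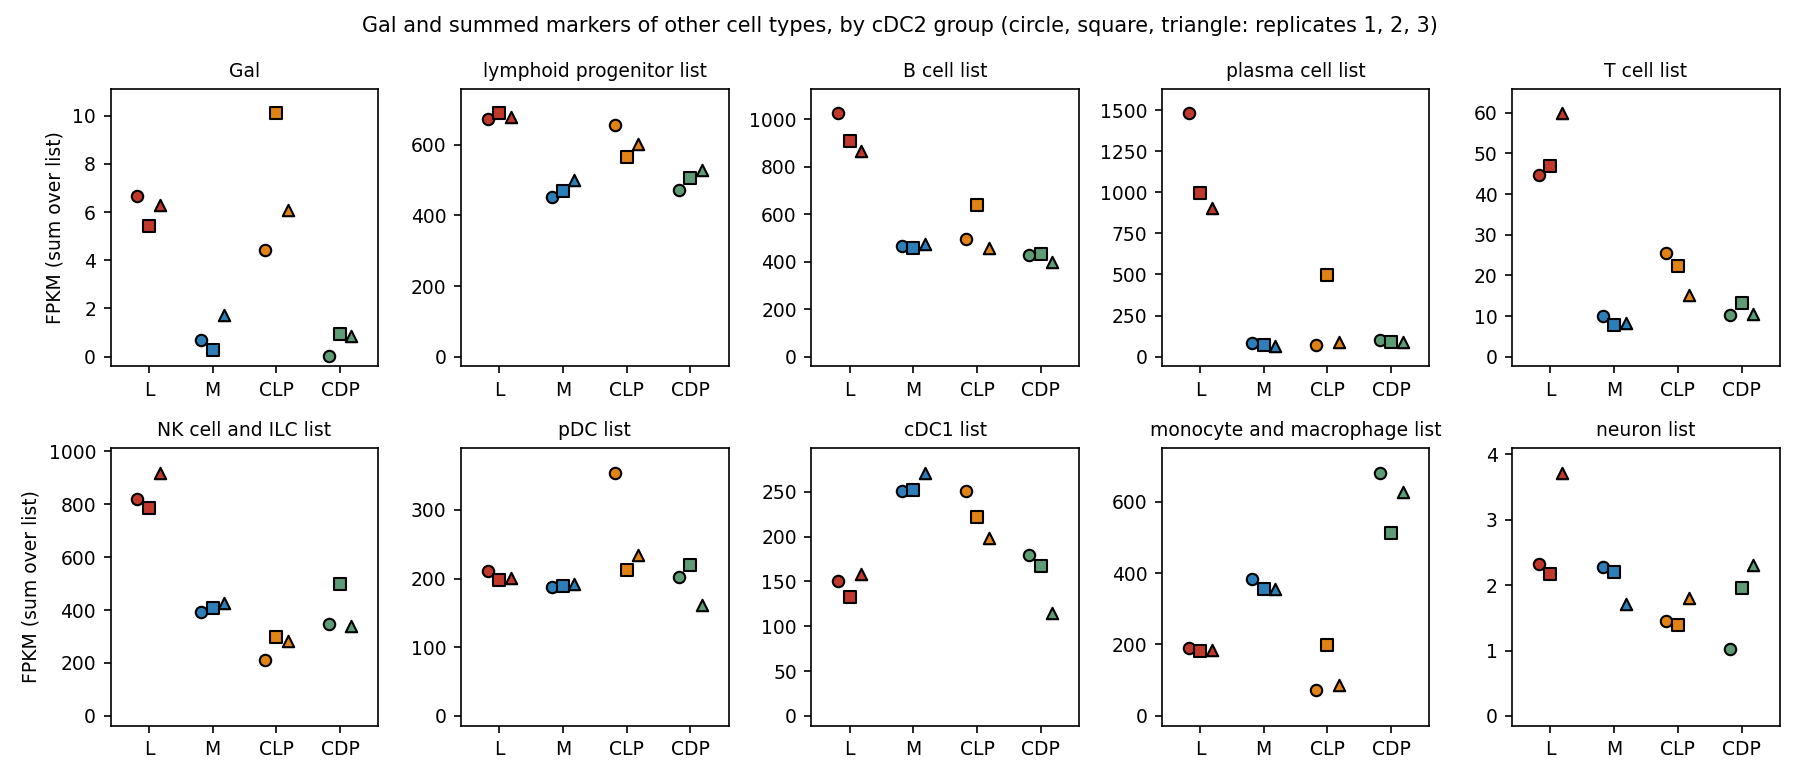
Gal and the summed FPKM of 9 lists of markers (1 panel each, own vertical axis from 0) in the 4 groups, with circle, square and triangle for replicates 1, 2 and 3. Plasma cell, B cell, T cell and NK cell and ILC lists are highest in all 3 L-cDC2 libraries. In CLP-cDC2 libraries these sums are lower and Gal is at 4.41 to 10.1 FPKM. The B cell and T cell sums, like Gal, are higher in all 3 CLP-cDC2 than in all 3 CDP-cDC2 libraries. The NK cell and ILC sums are lower in all 3 CLP-cDC2 than in all 3 CDP-cDC2 libraries, while the median log2 difference of the 13 tested members is 0.27.

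Ly6d, a surface protein of early lymphoid cells, shared the order between origins. It was at 45.9, 33.2 and 41.2 FPKM in L-cDC2 and at 0.954, 0.0273 and 1.64 FPKM in M-cDC2, and at 68.7, 36.4 and 23.9 against 2.94, 3.45 and 0.494 FPKM in CLP-cDC2 and CDP-cDC2.

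Genes with a pattern like Gal were sought among 9698 protein-coding tested genes by the root mean square difference of log2(FPKM + 1), centred on each gene's mean, over 12 libraries. The distance to Gal had a median of 1.14 over these genes. The 8 nearest were Mgst2 (0.60), Faah (0.61), Blnk (0.61), Lck (0.62), Tcf7 (0.64), Tpm2 (0.64), Ldhb (0.65) and Cd96 (0.69), and the next one stood at 0.71. All were ranked on the same libraries and share their depth, and the ranking carries no test. Mgst2, a microsomal glutathione transferase, was at 1.04 to 1.92 FPKM in L-cDC2, 0.156 to 0.307 in M-cDC2, 1.95 to 2.48 in CLP-cDC2 and 0.0369 to 0.053 in CDP-cDC2. Faah, which breaks down the endocannabinoid anandamide, was at 3.16 to 3.90, 1.04 to 1.44, 2.09 to 6.57 and 0.494 to 0.915 FPKM in the same order of groups, with its highest library in CLP-cDC2 replicate 2, as for Gal. Blnk, an adaptor of the B cell receptor, had means of 2.27 and 0.320 FPKM in L-cDC2 and M-cDC2 and of 1.89 and 0.409 FPKM in CLP-cDC2 and CDP-cDC2. For Lck, the kinase of T cell receptor signalling, they were 10.7 and 0.633 FPKM, and 6.70 and 0.967 FPKM. Tcf7, a transcription factor of early T and innate lymphoid cells, had means of 6.76 and 2.26 FPKM, and of 8.51 and 3.20 FPKM. The other nearest genes were Tpm2, a tropomyosin, Ldhb, a lactate dehydrogenase chain, and Cd96, a receptor of T and NK cells. By Pearson's r in place of distance, 2 of these 8 genes, Mgst2 and Blnk, were again among the top 8.

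**Figure D4:**
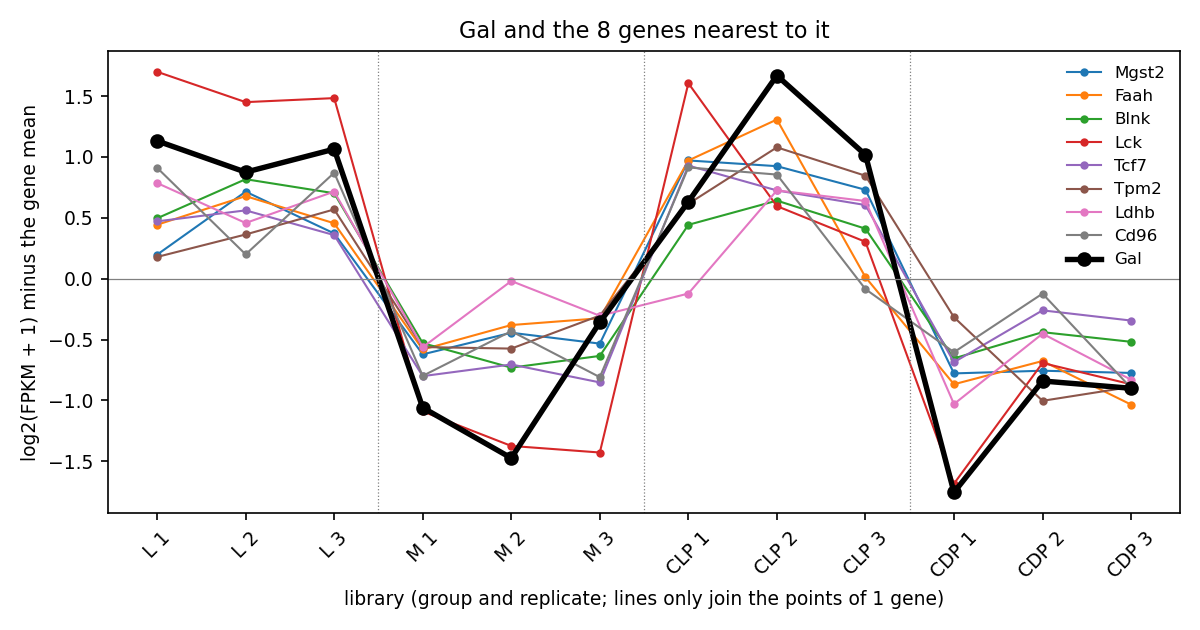
Profiles over the 12 libraries (horizontal axis) of Gal and the 8 genes nearest to it, as log2(FPKM + 1) minus each gene's mean (vertical axis). The 6 lymphoid-origin libraries lie above the 6 myeloid-origin libraries for Gal, and the distances of the 8 genes from Gal run from 0.60 to 0.69.

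The genes around Gal on chromosome 19 had smaller differences between origins than Gal. Gal was chosen for these differences and its neighbours were not, so this was likely beforehand and is no finding about the locus. Within 500 kb by the deposited coordinates there were 34 other genes, 12 of them protein-coding, and 16 were tested. In L-cDC2 minus M-cDC2 limma called 0 of the 16 (1.73% of all tested genes), and 0 passed an unadjusted p under 0.05 (8.26%). Their log2 differences there ran from -0.51 to 0.36, against 1.99 for Gal. In CLP-cDC2 minus CDP-cDC2 they ran from -0.57 to 0.85 and 1 of the 16 was called (lower, as were 6.12% of all tested genes), against 2.27 for Gal. There, 6 passed an unadjusted p under 0.05 (3 higher and 3 lower), where 28.7% of all tested genes passed. Tesmin, a gene of male germ cells 2091 bases from Gal, did not pass the filter and had group means from 0.163 to 0.391 FPKM. Next to it lies Cpt1a, the carnitine palmitoyltransferase of fatty acid oxidation, at a gap of 24181 bases from Gal. Its means were 3.03 ± 0.799 and 2.11 ± 0.0648 FPKM in L-cDC2 and M-cDC2 and 3.95 ± 1.40 and 5.30 ± 3.47 FPKM in CLP-cDC2 and CDP-cDC2 (SD, n = 3), and it was not called. On the other side Ppp6r3, a regulatory subunit of protein phosphatase 6, lies 40383 bases away, with differences of 0.28 and -0.00 in the 2 contrasts between origins, not called. Lrp5, the Wnt co-receptor, lies 170283 bases away and did not pass the filter. Between systems, limma called 2 of the 16 lower in CLP-cDC2 minus L-cDC2, where 6.32% of all tested genes were lower, and 0 in CDP-cDC2 minus M-cDC2 (2 at an unadjusted p under 0.05, where 20.1% of all tested genes passed). At an unadjusted p under 0.05, 6 passed in CLP-cDC2 minus L-cDC2 (3 higher and 3 lower), where 27% of all tested genes passed.

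The 3 called neighbours, named after their values were seen, were all far from Gal. Chka, a choline kinase 437228 bases away, was lower in CLP-cDC2 than in CDP-cDC2 by -0.57 ± 0.17 (SE, limma, adjusted p = 0.045). Gm16066, a long noncoding RNA 384070 bases away, was lower in CLP-cDC2 than in L-cDC2 by -0.84 ± 0.21 (SE, limma, adjusted p = 0.025), and Aldh3b1, an aldehyde dehydrogenase, by -0.68 ± 0.20 (SE, limma, adjusted p = 0.047). Gm16066 and Chka overlap in position, and the sources used here do not say whether strand was used in counting, so their reads may not be fully separate. The call of Chka was lost without any 1 library except CLP-cDC2 replicate 3 and CDP-cDC2 replicate 3 (adjusted p from 0.051 to 0.16). Gm16066 lost it without replicate 1 or 2 of L-cDC2 or of CLP-cDC2 (0.056 to 0.13). Aldh3b1 lost it without any 1 L-cDC2 or CLP-cDC2 library, M-cDC2 replicate 2 or CDP-cDC2 replicate 2 (0.059 to 0.14). Other alternatives also ended these calls. For Chka the adjusted p was 0.079 with the replicate block, 0.054 with a pseudocount of 5, 0.1 without the filter, 0.087 with quantile normalization and 0.16 in a 2-group fit. For Aldh3b1 it was 0.079 with the block, 0.053 with a pseudocount of 5, 0.14 without the filter, 0.095 with quantile normalization, 0.051 with TMM factors, 0.052 without the trend and 0.051 by voom. For Gm16066 it was 0.082 without the filter.

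**Figure D5:**
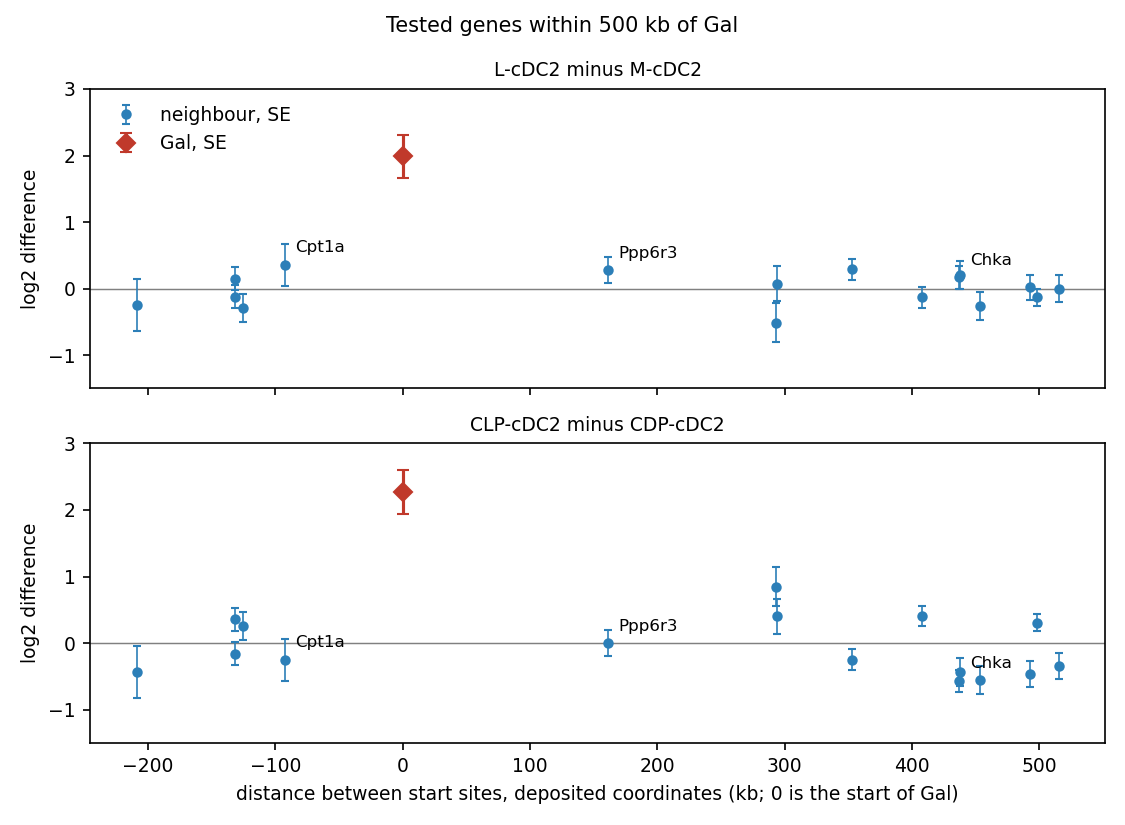
Log2 differences between origins (vertical axis) for Gal and the tested genes within 500 kb, by distance of the start site from that of Gal in kb (horizontal axis), with bars for the SE. Gal stands at 1.99 (L-cDC2 minus M-cDC2) and 2.27 (CLP-cDC2 minus CDP-cDC2), and no neighbour is above 0.85. Gal was chosen for these differences and its neighbours were not.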

How the data were processed

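The authors deposited 1 table of FPKM for 55322 genes in 12 libraries made with SMART-Seq HT and Nextera XT kits, per the labels' protocols. Per the submitters' processing notes the tools included STAR 2.7.9a, featureCounts 2.0.1, cutadapt 3.7, Trimmomatic 0.39, Trim Galore 0.6.7 and DESeq2 1.20.0, named without their roles, and the builds listed are GRCh38 and GRCm38. The aligner's settings and use of strand are not given in the sources used here. Gene lengths were taken as deposited.

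FPKM times length summed to the same total in each library, and the commonest low value was taken as 1 read. From 45.2 to 53.6% of values above 0 were then whole reads (tolerance 0.02), and Gal was whole in all 12 libraries. Other values were fractions of a read, so recovered reads were used only for Gal and for an added alternative.

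Values were analysed as log2(FPKM + 1). Genes at 1 FPKM or more in at least 3 libraries (14538) were fitted with limma 3.58.1 (R 4.3.3, eBayes with trend, two-sided) over 4 group means, with 8 residual degrees of freedom. A gene was called at a Benjamini-Hochberg adjusted p under 0.05 over all tested genes of a contrast. The contrasts share groups and are not independent of each other. The fit was also run on simulated data with a fixed spread and no outlying libraries. The outcome of that run is not reported here, so it is no check on these results. Exact permutation tests were added for Gal between systems.

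Gal and the gene lists were chosen with earlier results of these data known. Genes named are Gal, its family, called members of the 8 pathway lists (up to 5 per list and contrast), the highest or absent markers, the 8 nearest genes, the adjacent protein-coding genes and Ly6d. Other list members and markers are named for their role, after values were seen, and some results are not reported here. Groups and replicate numbers came from the labels. No 2 libraries of a group were identical. Alternatives were 2 pseudocounts, 2 filters, 2 scalings, 2-group fits, array weights, no trend, a replicate block, protein-coding genes alone and each library left out. Voom on recovered reads, and leaving out replicate 3 of both CDP-cDC2 and M-cDC2, were chosen after seeing the data.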

Additional observations from a re-analysis of the deposited data

Results flagged for a closer look

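For 2 genes of the galanin lists the difference between origins was not the same in the reporter mice and in the transfer, by limma's test of the difference itself. Ramp1, the partner chain of the calcitonin gene-related peptide receptor, differed by -1.06 on the log2(FPKM + 1) scale (L-cDC2 minus M-cDC2 against CLP-cDC2 minus CDP-cDC2, adjusted p = 0.017, where 2.38% of all tested genes were called in this direction). It was lower in all 3 L-cDC2 than in all 3 M-cDC2 libraries and higher in all 3 CLP-cDC2 than in all 3 CDP-cDC2 libraries. The adjusted p was 0.053 without L-cDC2 replicate 2, 0.053 without replicate 3 of both CDP-cDC2 and M-cDC2, and 0.068 without the filter.

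Plcb2, the phospholipase C of blood cells, differed by 0.80 (limma, adjusted p = 0.035, where 3.61% of all tested genes were called in this direction). L-cDC2 had 15.7 ± 2.69 FPKM and M-cDC2 12.9 ± 0.435 FPKM, while CLP-cDC2 had 11.2 ± 1.04 FPKM and CDP-cDC2 16.9 ± 1.83 FPKM (SD, n = 3). That call was lost in 9 of 12 fits without 1 library (adjusted p from 0.055 to 0.1, all but those without L-cDC2 replicate 3, CDP-cDC2 replicate 1 or CDP-cDC2 replicate 2). It was also lost without replicate 3 of both CDP-cDC2 and M-cDC2 (0.091), with the replicate block (0.069) and without the filter (0.082).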

How the results depend on the processing

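Gal stayed higher in the lymphoid-origin group of both systems under all alternatives run. Gal was chosen for this direction and the groups did not overlap, so leaving out a library or changing the pseudocount could not turn it. The direction is therefore no check on the choice. L-cDC2 minus M-cDC2 was 2.96 with a pseudocount of 0.1, 0.92 with 5 and 3.16 by voom, and 1.73 to 2.29 with 1 library left out. CLP-cDC2 minus CDP-cDC2 was 3.67, 1.05 and 4.09, and 1.98 to 2.51. CLP-cDC2 minus L-cDC2 ran from -0.20 to 0.32 with 1 library left out. CDP-cDC2 minus M-cDC2 ran from -0.46 to 0.10 and was 0.31 with array weights. None of the alternatives called Gal in the comparisons between systems. Cell numbers and separate mice are not stated, and the few Gal reads in the myeloid-origin groups limit the precision of their ratios.

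The number of genes called moved more, and the cause was not tested. For L-cDC2 minus M-cDC2 (252) it was 137 with a filter of 5 FPKM, 838 with array weights and 96 to 289 with 1 library left out. For CLP-cDC2 minus CDP-cDC2 (1910) it was 1067 without the filter, 687 in a 2-group fit and 978 to 1974 with 1 library left out. For CLP-cDC2 minus L-cDC2 (1542) it was 947 without the filter, 2480 with array weights, 503 to 2345 with 1 library left out and 2674 without replicate 3 of both CDP-cDC2 and M-cDC2. For CDP-cDC2 minus M-cDC2 (375) it was 103 without the filter, 47 in a 2-group fit, 2022 with array weights, 616 among protein-coding genes alone, 683 by voom, 74 to 586 with 1 library left out and 99 without the same pair. The genes nearest to Gal shared 2 of 8 with the ranking by Pearson's r.

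The labels do not say whether a replicate number marks shared mice, and the deviations of same-numbered libraries correlated at -0.43 to 0.28, so the numbers were not taken as a pairing. With the replicate block the Gal differences were 1.99, 2.27, 0.08 and -0.20 as before, and 225, 1364, 1139 and 186 genes were called.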
